A study of Mus musculus with 8 samples.

Results

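Macrophages grown from bone marrow of Thoc5 (flox/flox) mice were compared with macrophages from control mice without the flox allele, both without tamoxifen. The arrays of this comparison were chosen by their labels, the flox group and the control group without tamoxifen, and number 4 of the 8 in the series, 2 per group. Each group holds 1 array from each of 2 biological experiments, and flox and control arrays are paired by experiment. Both genotypes carry ERT2 Cre, a recombinase that is held inactive until tamoxifen binds it, and both are of the mixed background C57BL/6 x B6:129 Ola. Flox cells carry in addition Thoc5 alleles that this recombinase can cut out. The promoter of the Cre, the age and sex of the mice and the number of mice behind a sample are not given in the sources used here.

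The RNA was cytoplasmic. CSF-1 is the cytokine on which macrophages depend, and each dual-colour array set RNA from day 3 of culture with it against RNA from day 0, both from one genotype within one experiment. The other 4 arrays hold day 3 RNA of the same genotypes after tamoxifen, set against the same day 0 RNA. In experiment 1 the day 3 RNA carried the red dye and in experiment 2 the green dye, so experiment, dye direction and slide are the same split. Thoc5 encodes a subunit of the THO complex, part of the TREX complex that loads onto new transcripts and hands them to the mRNA export receptor. In myeloid cells THOC5 is also known as a target of the CSF-1 receptor kinase. During macrophage differentiation, progenitors in culture divide, leave the cell cycle and gain genes for phagocytosis and lipid handling, while RNA of other marrow lineages falls.

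The comparison used a pair of measures, both on a log2 scale and given as flox minus control. The first is the day 3 over day 0 ratio of an array, so its difference compares the change under CSF-1. The second is the day 3 channel alone, which also keeps any difference that was present at day 0. Errors are standard errors of the limma fit with n = 2 arrays per group, and a gene was called at an adjusted p under 0.05 (Benjamini-Hochberg over 17942 genes). Across genes, r between the 2 flox arrays was 0.928 in the ratio and 0.995 in the day 3 channel, and between the 2 control arrays 0.785 and 0.991. On all 8 arrays 51.2% to 57.9% of probes were well above background in a channel, and 0 spots were saturated.

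The macrophage label was checked against its markers. All 10 macrophage markers, among them the CSF-1 receptor gene Csf1r, were well above background at day 3 on both arrays of each group. Csf1r stood at 17.79 and 17.53 in flox cells and at 17.83 and 17.70 in control cells, a difference of -0.11 ± 0.10 (limma adjusted p = 0.539). All 10 were also well above background at day 0, where Csf1r averaged 17.88 in flox and 17.86 in control cells. Their detection therefore does not set day 3 cells apart from day 0 cells. The summed day 3 signal of the 10 markers was 0.841 times that of control cells in experiment 1 and 1.02 times in experiment 2. Stromal markers were present as well, with all 4 collagen and decorin genes detected and a sum 2.26 and 1.67 times that of control cells in experiments 1 and 2.

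The flox library of experiment 1 stands apart in Y-linked RNA. The helicase gene Ddx3y stood at 6.13 and 12.22 in flox cells of experiments 1 and 2, against 12.80 and 12.25 in control cells, in the day 3 channel. Eif2s3y stood at 6.72 and 13.81 in flox cells, against 13.41 and 13.60 in control cells. That library is low in both genes while the other 3 are alike, and its day 0 RNA shows the same, with Ddx3y at 6.17 there. Genotype and what goes with the level of these genes cannot be told apart in experiment 1, and values of each experiment are given beside a number of the results. Neither gene was called.

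Thoc5 itself was somewhat lower in flox cells without tamoxifen. On chromosome 11, its probe spans 4828807 to 4828866 (mm9). The day 3 level was 11.86 and 11.67 in flox cells and 12.21 and 12.43 in control cells. Both flox values lie below both control values, a split whose share over all genes was not computed. The difference was -0.56 ± 0.12 (95% interval -0.85 to -0.26, 1.47-fold lower, limma adjusted p = 0.0405). The day 0 difference, which was not tested, was -0.01 in experiment 1 and -0.27 in experiment 2. In the ratio, flox cells stood at -0.74 and -0.77 and control cells at -0.40 and -0.28. That difference of -0.42 ± 0.10 did not pass (limma adjusted p = 0.0730). With tamoxifen the day 3 difference was -2.86 (limma adjusted p = 0.000277), and the gap between the 2 genotype differences passed its own test at -2.31 ± 0.18 (limma adjusted p = 0.00626). The call without tamoxifen is a narrow one, since it was lost whenever any single array was left out (limma adjusted p from 0.0556 to 0.189).

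No other THO subunit was called in either measure. The day 3 differences were 0.21 for Thoc1, -0.15 for Thoc2, 0.30 for Thoc3, 0.19 for Thoc6 and 0.32 for Thoc7, each with an adjusted p of at least 0.0907. A second Thoc2 probe had the opposite sign, at 0.69 ± 0.37, so no direction can be given for Thoc2. Among 18 measured THO and TREX genes, 0 were called in the ratio and only Thoc5 in the day 3 channel. Of 24 export receptor and nuclear pore genes, 1 was called in the day 3 channel, Nup98, which encodes a mobile pore protein, at -0.66 ± 0.10 (limma adjusted p = 0.0137).

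Across all genes, 517 of 17942 were called in the ratio, 2.88% of those tested, with 259 higher and 258 lower in flox cells. For the day 3 channel, 1796 were called, 10% of those tested, with 991 higher and 805 lower. At least a 2-fold difference was found for 158 of the first and 340 of the second. Of the genes called in the ratio, 374 were called with the same sign in the day 3 channel, 72.3% of the ratio calls and 20.8% of the day 3 calls, and 8 with the opposite sign. The 2 measures share the same day 3 RNA. The number of ratio calls depends on the fit: 2 genes were called without the term for the experiment, 0 when the 4 arrays were fitted alone, 5 with Agilent's processed log ratios, and 155, 0, 0 and 0 when control 1, flox 1, control 2 and flox 2 were left out. Counts for the day 3 channel were 712 without the term, 290 with the 4 arrays alone and 1093, 154, 1207 and 318 without those arrays.

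The largest positive ratio differences belonged to genes that fell less from day 0 to day 3 in flox cells. Chac1, an enzyme gene that degrades glutathione and is induced by amino acid shortage, stood at -0.15 and 0.13 in flox cells and at -2.41 and -3.09 in control cells. Its flox values lie near 0, the day 0 level, and the groups do not overlap (difference 2.75 ± 0.40, limma adjusted p = 0.0377). Such a split is common, since every flox ratio lay above every control ratio in 3823 of 17901 genes (21.4%). Gpr84, a receptor for medium-chain fatty acids, stood at -0.33 and 0.05 in flox cells and at -2.50 and -1.26 in control cells (1.75 ± 0.20, limma adjusted p = 0.0332). At day 3 it was 4.74-fold higher in flox cells, with 12.85 on both arrays against 10.40 and 10.80 in control cells. The replication-coupled ubiquitin ligase adaptor gene Dtl stood at -0.53 and -0.36 in flox cells and at -2.44 and -1.82 in control cells (1.69 ± 0.23, limma adjusted p = 0.0371).

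Several further genes with large positive differences act in DNA replication and division. Hells, a chromatin remodeller of dividing cells, stood at -0.28 and -0.23 in flox cells and at -2.39 and -1.49 in control cells (1.68 ± 0.27, limma adjusted p = 0.0390). Timeless, a replication fork protein, differed by 1.41 ± 0.15 (limma adjusted p = 0.0308). The phosphatase gene Cdkn3 stood at 0.28 and -0.05 in flox cells and at -1.28 and -1.47 in control cells (1.49 ± 0.14, limma adjusted p = 0.0228). Uchl1, a ubiquitin hydrolase gene, Fignl1, which acts in recombination, and Exo1, an exonuclease of DNA repair, differed by 1.50, 1.39 and 1.36 (limma adjusted p from 0.0377 to 0.0488). All 6 genes from Hells to Exo1 were also called higher in the day 3 channel.

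Signalling and surface genes led the genes that were lower in flox cells. Ccl8, a monocyte chemokine gene, stood at 0.74 and 0.23 in flox cells and at 3.67 and 2.86 in control cells. Its day 3 level was 9.96 and 11.45 in flox cells against 13.23 and 13.16 in control cells, 5.62-fold lower (limma adjusted p = 0.0146). Cd83, an immunoglobulin-like protein of activated antigen-presenting cells, stood at -0.36 and -0.29 in flox cells and at 2.18 and 1.77 in control cells. Both control values lie above both flox values in each gene (differences -2.78 ± 0.18 and -2.30 ± 0.16, limma adjusted p = 0.0173 each). The share of all genes split in this direction was not computed. Thbs1, the matrix protein thrombospondin 1, stood at -2.58 and -3.48 in flox cells and at 0.13 and -0.76 in control cells (-2.72 ± 0.40, limma adjusted p = 0.0377).

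Nrg1 (neuregulin 1), Bcor (a BCL6 corepressor) and Ednrb (an endothelin receptor) differed by -2.22, -2.16 and -1.70 in the ratio (limma adjusted p = 0.0173 each). At day 3 Ednrb stood at 10.16 and 10.01 in flox cells and at 12.10 and 12.17 in control cells, 4.13-fold lower (limma adjusted p = 0.00214), and a second probe differed by -1.19. Bcor rests on 1 of its probes, since a second differed by -0.43 in the ratio and -0.46 in the day 3 channel. The class I gene H2-Q8 differed by -1.54 ± 0.26 (limma adjusted p = 0.0416). Gm3651, Gm4148, Gm2627 and A130040M12Rik were also among the 12 largest negative differences, at -2.17 to -2.03. The probes of Gm4148 and A130040M12Rik share a run of 52 bases, and those of Gm3651 and Gm2627 one of 21, so the first pair cannot be read as separate results and the second is uncertain.

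**Figure D1:**
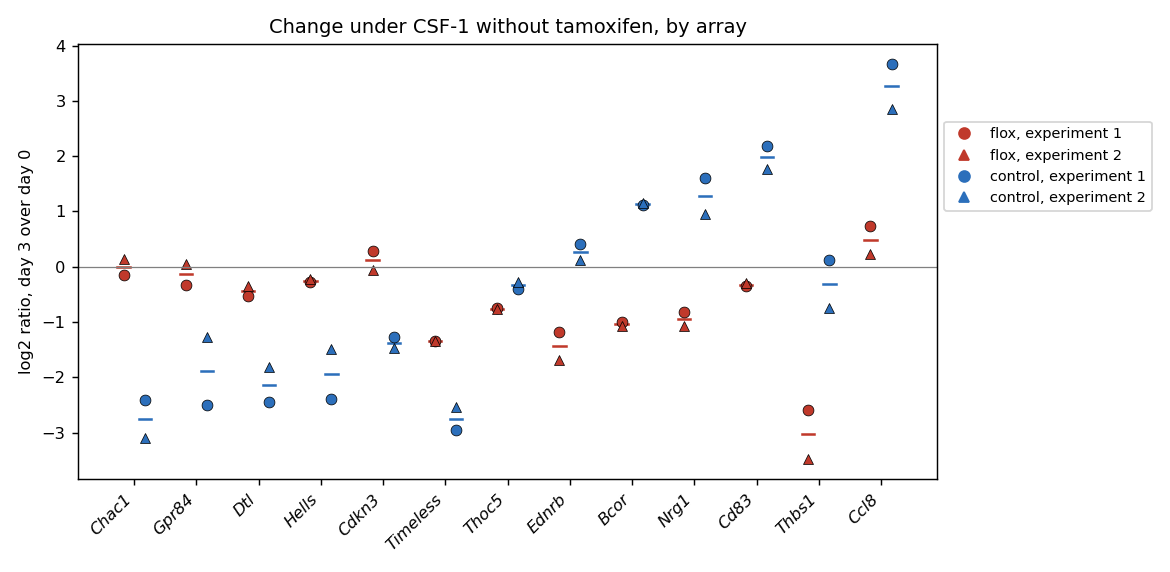
Log2 ratio of day 3 over day 0 on each array (y axis) for 13 genes (x axis), flox left of control; circles are experiment 1, triangles experiment 2 and bars the mean of 2 arrays. From Chac1 to Timeless all flox values lie above all control values, as in 21.4% of all genes. From Thoc5 to Ccl8 all lie below, and Thoc5 did not pass the test.

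Of the 36 gene lists, the one of G2 and mitosis genes had the highest share of calls. The median of its 39 measured genes stood at -0.73 and -1.0 on the flox arrays and at -1.67 and -1.50 on the control arrays, so the fall from day 0 to day 3 was smaller in flox cells. The median difference was 0.81, with 0.93 in experiment 1 and 0.66 in experiment 2, beside -0.0002 over all genes. In the ratio, 26 of the 39 were called higher and 1 lower, against 1.44% higher and 1.44% lower of all genes. At day 3, 37 of 39 were called higher and 0 lower (median 0.91, and 0.93 and 0.89 by experiment), against 5.52% higher of all genes. At day 0 the median difference was -0.05 in experiment 1 and 0.24 in experiment 2. The list was chosen with earlier results of these arrays known.

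Ube2c, which charges ubiquitin for the anaphase-promoting complex, stood at -0.26 and -0.22 in flox cells and at -1.57 and -1.50 in control cells (1.29 ± 0.10, limma adjusted p = 0.0173). Its day 3 level was 14.92 and 14.83 in flox cells against 13.58 and 13.36 in control cells, 2.66-fold higher (limma adjusted p = 0.00649). Ccnb2, a mitotic cyclin gene, stood at 0.18 and -0.49 in flox cells and at -1.24 and -1.69 in control cells (1.31 ± 0.13, limma adjusted p = 0.0262). In both genes each flox value lies above each control value, as in 21.4% of all genes. The kinetochore genes Ndc80 and Nuf2 differed by 1.37 ± 0.22 and 1.20 ± 0.16, the survivin gene Birc5 by 1.10 ± 0.15, and Cdc20, an activator of the anaphase-promoting complex, by 1.00 ± 0.14 (limma adjusted p from 0.0362 to 0.0390). The proliferation marker Mki67 differed by 0.81 ± 0.13 in the ratio and 0.90 ± 0.11 in the day 3 channel. Pttg1, which encodes securin, is the single member called lower. It stood at -0.46 and -1.07 in flox cells and at 0.14 and -0.35 in control cells (-0.66 ± 0.10, limma adjusted p = 0.0390). Its day 3 difference of 0.25 did not pass, and its day 0 differences were 1.14 and 0.69.

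**Figure D2:**
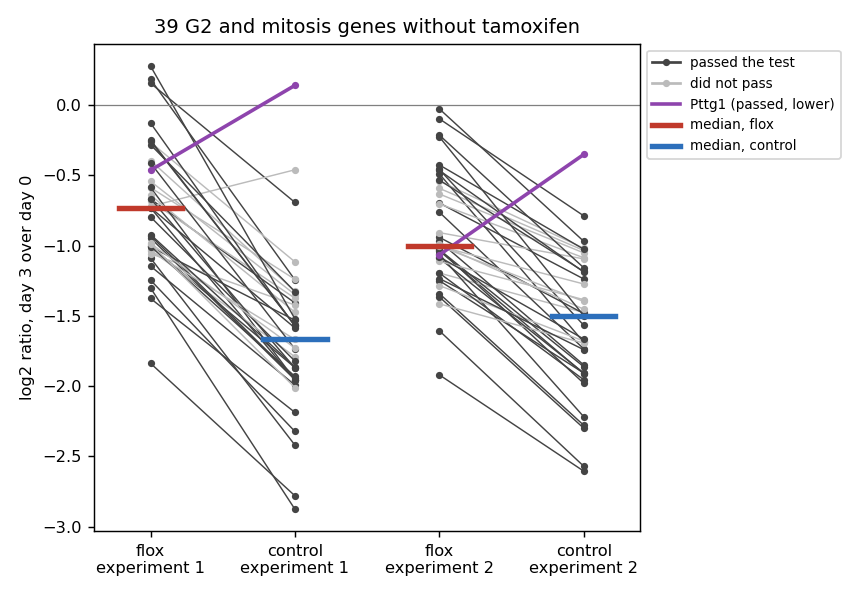
Log2 ratio of day 3 over day 0 (y axis) of each of 39 G2 and mitosis genes, joined by a line between flox and control of the same experiment (x axis); thick bars are the medians, dark lines genes that passed the test. Most lines slope down in both experiments, with medians of -0.73 against -1.67 and -1.0 against -1.50, and Pttg1 slopes up.

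S phase genes had fewer calls in the ratio. Of 46 measured, 8 were called higher and 0 lower in the ratio (median 0.62), and 31 higher and 0 lower in the day 3 channel (median 0.82). The ratio median was 0.97 in experiment 1 and 0.31 in experiment 2, and the day 0 median -0.04 and 0.41. Mcm10, a replication initiation factor, stood at -0.77 and -0.92 in flox cells and at -2.08 and -2.05 in control cells (1.22 ± 0.11, limma adjusted p = 0.0228). Cdc45 and Mcm2, parts of the replicative helicase, differed by 1.22 ± 0.23 and 0.91 ± 0.15, and Cdc6, which loads it, by 1.23 ± 0.20. Orc1 of the origin recognition complex and Pole2 of polymerase epsilon were 3.01-fold and 2.53-fold higher in the day 3 channel (limma adjusted p = 0.00175 and 0.00295). Their ratio differences did not pass.

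Without the term for the experiment, 25 G2 and mitosis genes and 21 S phase genes were called higher in the day 3 channel, and 0 of either list in the ratio. With the compared arrays of experiment 1 alone the day 3 counts were 9 and 7, and with those of experiment 2 alone 2 and 1. With any single array left out the median of the G2 and mitosis list stayed between 0.64 and 0.96 in the ratio, while at most 3 of its genes were called.

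Promoters of G2 and mitosis genes are known for the cell cycle genes homology region (CHR), a TTTGAA element bound by the DREAM complex, and for CCAAT boxes bound by NF-Y. Of the 26 G2 and mitosis genes called higher, 23 have a promoter in the RefSeq promoter table (GRCm38.p6, 250 bases before to 50 after the start). TTTGAA occurs on either strand in 16 of these 23 (69.6%), against 12.9% of the 11014 tested genes with a promoter there and 18.1% of all 27025 promoters. It occurs in 25 of the 33 listed genes with a promoter (75.8%), called or not. Among all genes called in the ratio, the share is 29.3% of 188 promoters for the higher and 13.6% of 162 for the lower. For CCAAT on either strand the shares are 69.6% of the 23, 38.7% of tested genes, and 56.9% and 40.1% of the higher and lower calls. A match of letters does not show a bound site.

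The promoters of 4 called genes of small p that hold TTTGAA are shown so that the element can be seen beside the values above. Some called genes with a smaller p than Cdc20 are not among them. Each runs from 200 bases before to 30 after the start, 5′ to 3′ along the gene, with the TTTGAA element and the CCAAT box, on either strand, in capitals. Ube2c lies at chr2:164769729-164769958 (plus strand), Ccnb2 at chr9:70421525-70421754 (minus strand), Kif11 at chr19:37376182-37376411 (plus strand) and Cdc20 at chr4:118437314-118437543 (minus strand) of GRCm38.p6.
Ube2c: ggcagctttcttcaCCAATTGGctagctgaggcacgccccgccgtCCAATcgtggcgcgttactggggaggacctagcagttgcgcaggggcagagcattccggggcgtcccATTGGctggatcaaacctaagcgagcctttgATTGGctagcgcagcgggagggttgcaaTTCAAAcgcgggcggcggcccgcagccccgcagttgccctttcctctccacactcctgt
Ccnb2: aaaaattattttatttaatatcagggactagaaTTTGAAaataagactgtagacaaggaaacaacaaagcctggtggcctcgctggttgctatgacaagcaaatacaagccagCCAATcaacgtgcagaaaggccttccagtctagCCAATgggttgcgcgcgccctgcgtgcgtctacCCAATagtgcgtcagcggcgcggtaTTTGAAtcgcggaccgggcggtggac
Kif11: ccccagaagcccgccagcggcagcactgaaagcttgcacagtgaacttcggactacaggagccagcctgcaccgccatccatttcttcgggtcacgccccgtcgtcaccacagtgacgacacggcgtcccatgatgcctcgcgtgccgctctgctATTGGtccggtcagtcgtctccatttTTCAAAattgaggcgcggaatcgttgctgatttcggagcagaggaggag
Cdc20: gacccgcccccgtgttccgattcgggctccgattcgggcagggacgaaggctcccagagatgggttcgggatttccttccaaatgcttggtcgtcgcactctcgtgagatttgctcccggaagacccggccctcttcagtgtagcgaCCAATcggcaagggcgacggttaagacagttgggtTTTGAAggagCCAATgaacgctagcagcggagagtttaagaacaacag
Ccnb2 holds 2 TTTGAA elements and the other 3 hold 1. Kif11, a spindle motor gene, differed by 0.92 ± 0.11 in the ratio (limma adjusted p = 0.0337), with -0.95 and -1.03 in flox cells against -1.95 and -1.86 in control cells.

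Of 20 measured genes of the ATF4 response, which supplies amino acids to starved cells, 4 were called higher and 1 lower in the ratio (median 0.47, and 0.36 and 0.57 by experiment), and 9 higher and 1 lower in the day 3 channel (median 0.47). Psat1 and Psph of serine synthesis differed by 1.30 ± 0.17 and 0.93 ± 0.13 in the ratio, and Asns, asparagine synthetase, by 1.18 ± 0.20 (limma adjusted p from 0.0360 to 0.0405). Asns differed alike in both experiments at day 3, 1.20 and 1.19, against -0.05 and 0.07 at day 0. The pseudokinase gene Trib3 was 2.83-fold higher in the day 3 channel (limma adjusted p = 0.0156). Vldlr, a lipoprotein receptor gene, is the member called lower, at -0.96 ± 0.15 in the ratio. Of 23 p53 target genes, Gtse1, itself a gene of G2, and Bbc3, which encodes the death factor PUMA, were called higher in both measures, at 0.98 and 1.01 in the ratio. In 2 further lists, 5 of 30 MYC and ribosome biogenesis genes and 5 of 21 endoplasmic reticulum folding genes were called higher in the day 3 channel, against 5.52% of all genes, with medians of 0.24 and 0.18. Their medians in experiment 2 alone were 0.03 and 0.03. Of 46 ribosomal protein genes, 0 were called in either measure, with medians of -0.05 in the ratio and -0.03 in the day 3 channel.

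Of 23 measured lipid handling genes, many of them targets of the nuclear receptors LXR and PPAR gamma, 4 were called lower and 0 higher in the ratio (median -0.44, and -0.48 and -0.53 by experiment), and 9 lower and 1 higher in the day 3 channel (median -0.49), against 4.49% lower of all genes. Day 0 medians were -0.03 and 0.04. Abca1, the cholesterol exporter, differed by -1.34 ± 0.20 in the ratio and -1.40 ± 0.21 in the day 3 channel (limma adjusted p = 0.0377 and 0.0137), and the exporter Abcg1 by -1.07 ± 0.20 in the ratio. In the day 3 channel Abcg1 differed by only -0.50 ± 0.10. At day 0, which was not tested, it differed by 1.04 in experiment 1 and 0.10 in experiment 2. Pparg, a nuclear receptor of lipid metabolism, differed by -0.74 ± 0.10 in the ratio and by -1.04 and -1.05 at day 3 in the 2 experiments. Srebf1, a regulator of fatty acid synthesis, and Scd2, a desaturase gene, differed by -1.03 and -1.04 in the day 3 channel. Nr1h3, which encodes LXR alpha, is the member called higher, by 0.67 ± 0.12.

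Of 13 measured C-C chemokine genes, 6 were called lower and 0 higher in the day 3 channel (median -0.74, and -0.61 and -1.0 by experiment), and Ccl8 alone in the ratio. Among all genes, 4.49% were called lower in the day 3 channel and 1.44% lower in the ratio. Ccl6 and Ccl3 differed by -1.62 ± 0.13 and -1.63 ± 0.18 (limma adjusted p = 0.00321 and 0.00685), and Ccl5, Ccl27a and Ccl4 by -1.41, -0.79 and -0.55, with other Ccl27a probes at -0.74 and -0.24. For Ccl6 and Ccl3 the day 0 RNA differed too, untested, by -1.51 and -1.34 and by -1.01 and -2.29, whereas Ccl8 differed by -0.33 and 0.91 there. Ccl3 and Ccl6, like Ccl8, lie on chromosome 11, and the positions of the other called ones are not given here.

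Immediate early genes, the first genes induced by growth factor signals through ERK, gave 4 lower calls and 0 higher among 25 in the ratio, against 1.44% lower of all genes. In the day 3 channel 4 were called lower and 1 higher, against 4.49% and 5.52% of all genes. The higher one is Id3, at 0.57 ± 0.11. Egr1 and Egr2, zinc finger factors of macrophage differentiation, differed by -1.33 ± 0.21 and -1.16 ± 0.16 in the ratio (limma adjusted p = 0.0390 and 0.0371), and by -1.10 and -1.06 in the day 3 channel. Dusp6, an ERK phosphatase gene, and the nuclear receptor Nr4a1 differed by -1.11 ± 0.12 and -0.74 ± 0.09. The other 21 did not pass in the ratio, where the list median was -0.12 in experiment 1 and -0.70 in experiment 2.

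Of 33 measured macrophage markers, 1 was called lower in the ratio and 2 higher and 5 lower in the day 3 channel (median -0.10, and -0.21 and -0.07 by experiment), 21.2% against 10% of all genes. Cd5l, a secreted macrophage scavenger protein, differed by -1.21 ± 0.17 in the ratio and -1.46 ± 0.12 in the day 3 channel (limma adjusted p = 0.0377 and 0.00414). In the day 3 channel the adhesion receptor Siglec1 and the TAM receptor ligand Gas6 differed by -0.86 (-0.20 with a second probe) and -0.80, and the scavenger receptor Marco by 0.96. Of the lysosome genes, 6 of 44 were called lower at day 3, against 4.49% of all genes, among them Tfeb, the factor that switches them on, the peptidase gene Tpp1 and the ion channel gene Mcoln2, at -0.74, -0.69 and -0.70. F13a1, a coagulation factor made by monocytes, differed by -1.01 ± 0.15 in the ratio with 1 probe and by -0.05 with a second, and Plac8, a monocyte and progenitor gene, by -1.46 ± 0.11. Treml4, a monocyte receptor gene, was higher in the day 3 channel, by 1.02 ± 0.18.

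MHC class I and interferon-stimulated genes were mostly lower where called, while of all genes 4.49% were called lower and 5.52% higher in the day 3 channel. Of 18 class I genes the day 3 channel called 7 lower and 2 higher (median -0.40, and -0.50 and -0.24 by experiment), among them H2-K1 at -0.48, H2-T22 at -0.75, H2-T24 at 0.89 and H2-M2 at 0.93. Of 40 interferon-stimulated genes it called 7 lower and 1 higher (median -0.36, and -0.37 and -0.38 by experiment), the 7 with Xaf1, whose probes have opposite signs. Irf7, a master regulator of the interferon response, differed by -0.99 ± 0.20, the GTPase gene Irgm2 by -1.11 ± 0.16 and the viral tether gene Bst2 by -0.53 ± 0.10. At day 0, which was not tested, the mean difference was -1.01 for Irgm2 and -0.17 for Irf7. In the ratio 0 of the 40 were called, and the medians had opposite signs in the 2 experiments, -0.31 and 0.25. Class I genes are near-identical copies, so a probe may read more than 1 of them.

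RNA of other marrow lineages separates the 2 measures. In these bulk samples, fewer cells of a type and less RNA per cell cannot be told apart. Of 15 neutrophil primary granule genes, which mark promyelocytes, 7 were called lower and 0 higher in the ratio (median -0.59), and 7 higher and 2 lower in the day 3 channel (median 0.48). Of all genes 1.44% were called lower in the ratio, and 5.52% higher and 4.49% lower in the day 3 channel. The median day 0 differences of the 15 genes, which were not tested, were 1.32 and 0.98 in experiments 1 and 2. Mpo, the myeloperoxidase gene, stood at 12.42 and 12.05 in flox cells and at 10.50 and 10.65 in control cells at day 3, 3.16-fold higher (limma adjusted p = 0.0104), and differed by 2.27 and 1.57 at day 0. Its ratio difference of -0.26 did not pass. Prtn3, proteinase 3, and Ctsg, cathepsin G, were 3.35-fold and 2.13-fold higher at day 3. Ms4a3, a membrane protein gene of granulocyte progenitors, was called in opposite directions, at -1.10 ± 0.12 in the ratio and 0.71 ± 0.17 in the day 3 channel.

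Elane, neutrophil elastase, is 1 of the 2 members called lower at day 3, beside Nkg7, a cytotoxic granule gene, at -0.53 with 1 probe and 0.07 with a second. At day 3 it stood at 13.63 and 14.30 in flox cells and at 15.62 and 15.63 in control cells, 3.15-fold lower (limma adjusted p = 0.00522), and its ratio difference was -1.02 ± 0.10 (limma adjusted p = 0.0299). At day 0 it differed by -0.90 and -0.38. The summed day 3 signal of the 8 neutrophil markers was 36330 and 36686 in flox cells and 62480 and 61646 in control cells, although 5 of the 8 were called higher and Elane alone lower. The sum adds signals off the log scale, so a bright marker such as Elane weighs more in it than a dim one. The part of Elane in that sum was not tested.

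Of 25 later granule genes, 4 were called lower in the ratio (median -0.24) and 6 higher in the day 3 channel (median 0.36), with day 0 medians of 0.92 and 0.58. For this and the next lists, the shares over all genes were 1.44% lower in the ratio and 5.52% higher in the day 3 channel. Camp, Ltf and Ngp, antimicrobial granule proteins, differed by 0.91, 1.03 and 0.91 at day 3, and Stfa1, a cystatin gene, by -1.86 ± 0.24 in the ratio, where its day 3 signal in control cells was not well above background. Among 16 genes of mast cells, basophils and eosinophils, 7 were called lower in the ratio (median -0.55), such as the basophil protease Mcpt8 at -1.05, the eosinophil receptor Siglecf at -1.12 and the factor Gata2 at -0.87. At day 3, 1 of the 16 was called (6.25%), the cytokine gene Il4, lower, against 4.49% lower of all genes. Of 19 megakaryocyte genes 4 were called lower in the ratio, Thbs1, Clec1b, Rab27b and Gp9, with a median day 0 difference of 0.89 and 0.25 in the list. Of 21 stem and progenitor genes the ratio called 3 lower, among them Myb at -1.13 ± 0.16. The day 3 channel called 1 of the 21 higher (4.76%), near the 5.52% of all genes. It is Cd34, at 1.11 ± 0.13 with 1 probe and 0.26 with a second. For stromal and matrix genes the day 3 median was 0.52 and the day 0 median 0.50 and 0.31, with Ibsp and the smooth muscle gene Tagln called higher at day 3, 2 of 30 (6.67%), near the 5.52% of all genes. Postn, periostin, differed by 1.55 ± 0.44 without passing (limma adjusted p = 0.0752).

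**Figure D3:**
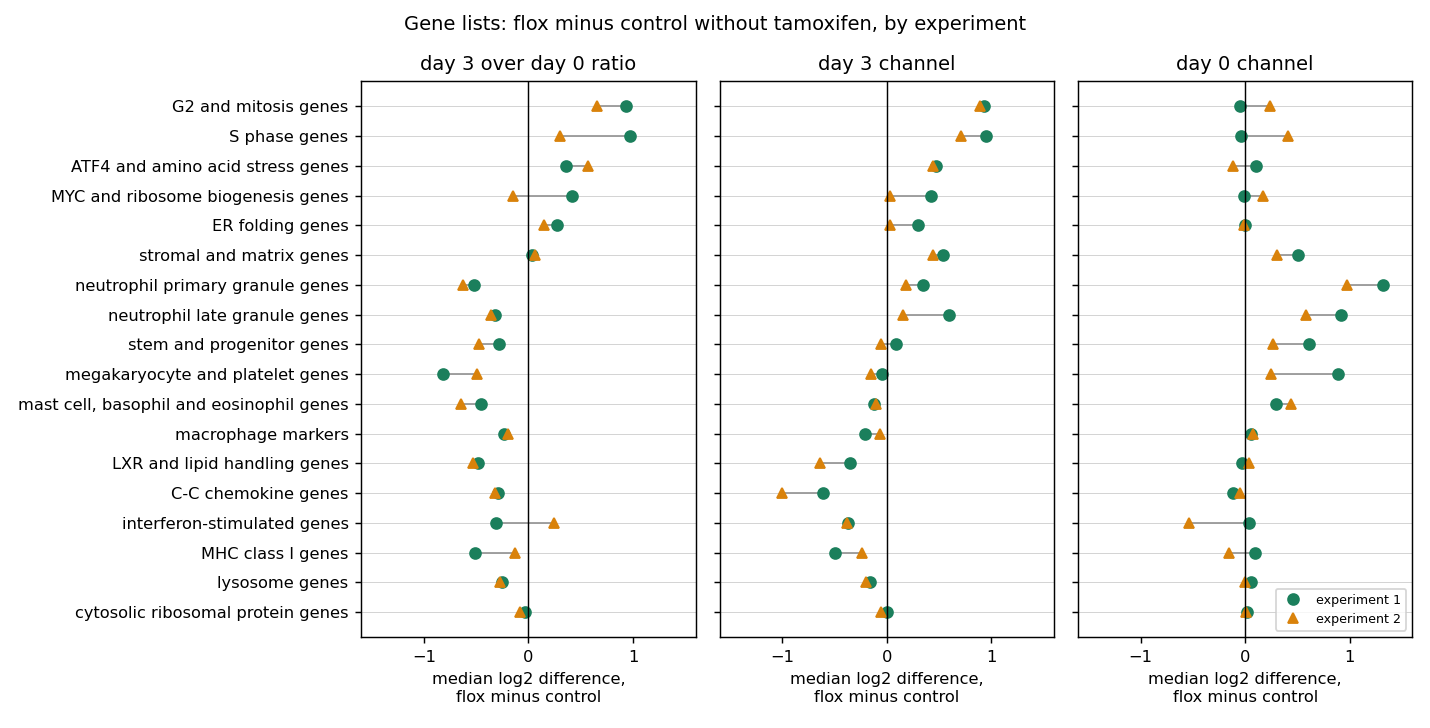
Median log2 difference, flox minus control (x axis), of 18 gene lists (y axis) in the ratio, the day 3 channel and the day 0 channel; circles are experiment 1 and triangles experiment 2. G2 and mitosis genes lie right of 0 in the ratio and day 3 panels and near 0 at day 0, while neutrophil primary granule genes lie at 1.32 and 0.98 at day 0 and left of 0 in the ratio.

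Some genes differed alike at day 0 and day 3, and hence little in the ratio. Across 17901 genes the day 0 and day 3 differences correlated at r = 0.514, where the arrays share normalization and genes are not independent replicates. Of the 340 genes called at least 2-fold in the day 3 channel, 47 also differed at least 2-fold the same way at day 0 in both experiments, 25 higher and 22 lower in flox cells. Ifi44l, an interferon-induced gene, stood at 10.73 and 11.21 in flox cells at day 3 and was not well above background in control cells. It was at least 18.8-fold higher (limma adjusted p = 0.000204), and at day 0 it differed by 3.72 and 3.82. Its neighbour Ifi44 stood at 12.21 and 12.24 in flox cells and at 9.16 and 9.09 in control cells, 8.58-fold higher (limma adjusted p = 0.000463), against 4.43 and 3.50 at day 0. Both lie on chromosome 3. Hddc3, a phosphohydrolase gene on chromosome 7, differed by 2.20 ± 0.11 at day 3 and by 1.95 and 1.78 at day 0.

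On chromosome 11, Slfn8, a member of the Schlafen family, stood at 7.66 and 7.56 in flox cells and at 11.34 and 11.28 in control cells, 13-fold lower (limma adjusted p = 0.000178). Tnfsf13os, an antisense transcript, stood at 7.15 and 7.12 in flox cells and at 11.53 and 10.61 in control cells, 15.3-fold lower (limma adjusted p = 0.00161). At day 0 they differed by -2.56 and -3.34 and by -2.28 and -2.63. Nlrp1b, an inflammasome sensor gene, differed by 2.41 ± 0.18 at day 3. Probes of 1 gene did not always go together here. Second probes stood at -0.17 for Slfn8 and -0.70 for Nlrp1b. For Xaf1, an interferon-induced apoptosis gene, the probe used differed by -2.88 ± 0.27 (limma adjusted p = 0.0047) and the second by 5.86, so no direction can be given for this gene. Among genes called in the day 3 channel, 394 have a further probe, and in 50 of them 1 has the opposite sign.

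**Figure D4:**
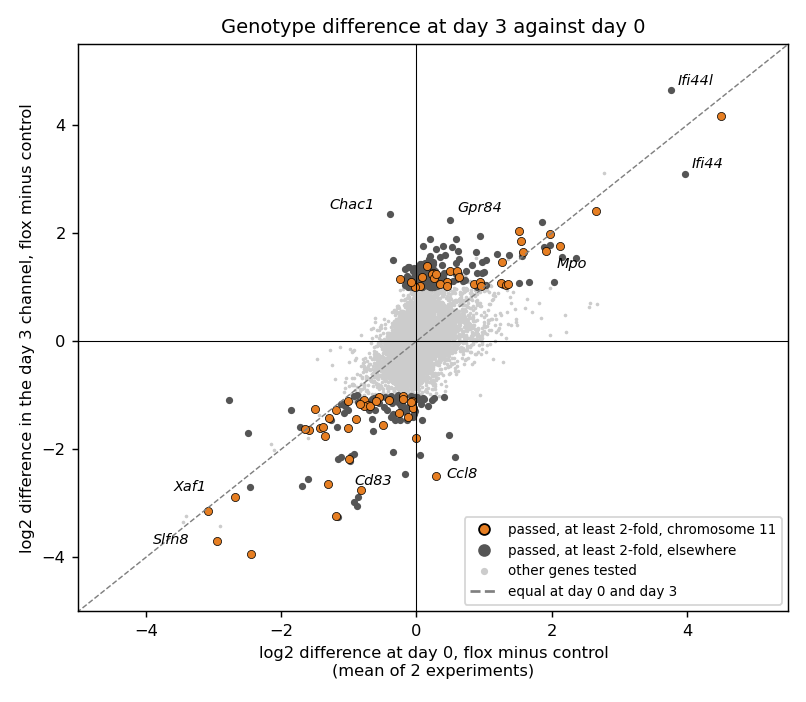
Log2 difference, flox minus control, in the day 3 channel (y axis) against the mean day 0 difference of 2 experiments (x axis) for each gene; orange marks called genes of at least 2-fold on chromosome 11, dark grey those elsewhere. Ifi44l, Slfn8 and Mpo lie near the dashed line of equal difference at both days, while Chac1, Gpr84, Cd83 and Ccl8 lie nearer to a day 0 difference of 0.

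Chromosome 11, which carries Thoc5, held the most of these genes. Of the 47 genes different at both days 23 lie on chromosome 11 (48.9%), and 4 each on the next, chromosomes 7 and 17, while 7.93% of all genes tested lie on chromosome 11. Of its 1422 genes 14.8% were called in the day 3 channel and 4.78% at least 2-fold, against 9.6% and 1.65% of the 16523 elsewhere. Along the chromosome, the share of at least 2-fold calls was not highest next to Thoc5. Within 10 Mb of its probe 4 of 94 genes were called at least 2-fold (4.26%), above the 1.65% elsewhere. In the same window 15 of the 94 were called at any size (16%), against 9.6% elsewhere. In the next 30 Mb none of 57, 48 and 25 genes per 10 Mb were called at least 2-fold. At 60 to 70 Mb 15 of 168 were (8.93%). These counts are a description, without a test.

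**Figure D5:**
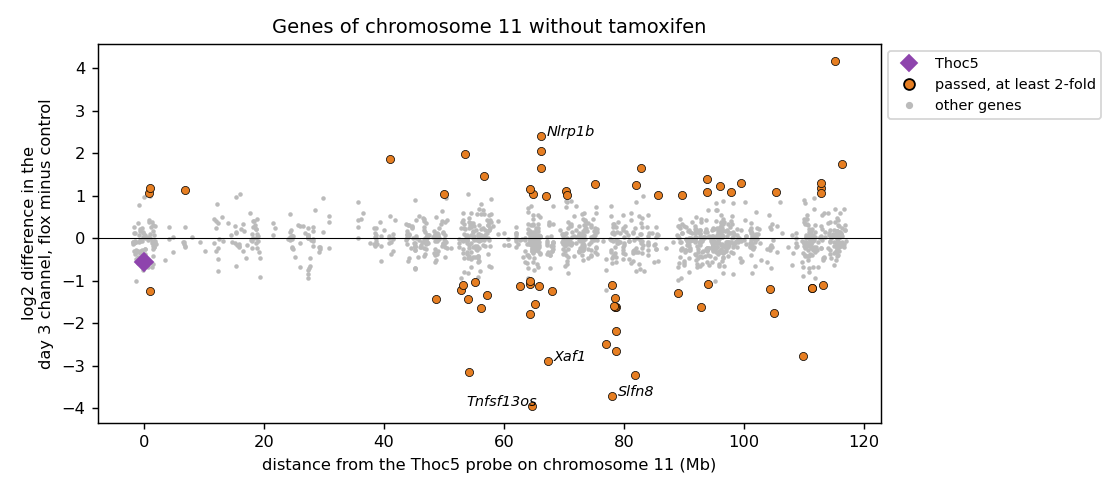
Log2 difference, flox minus control, in the day 3 channel (y axis) of the genes of chromosome 11 by distance from the Thoc5 probe in Mb (x axis); orange marks called genes of at least 2-fold and the diamond Thoc5. Genes called at least 2-fold number 15 of 168 at 60 to 70 Mb and none between 10 and 40 Mb.

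The same genotypes given tamoxifen gave separate day 3 RNA, set against the same day 0 RNA. Its values enter no difference above, apart from those given for Thoc5 with tamoxifen, but its arrays are part of the fit that sets the errors and the experiment term. The flox array of experiment 1 with tamoxifen was low in Y-linked RNA too, with Ddx3y at 6.14 and Eif2s3y at 6.55 at day 3. What goes with that level is therefore shared by both comparisons. Of the 340 genes of at least 2-fold in the day 3 channel, 206 were called with the same sign with tamoxifen (60.6%) and 15 with the opposite sign, where 9.13% of all genes were called higher and 8.3% lower. Of the 47 genes that also differed at day 0, 44 were called with the same sign. Ifi44, Slfn8 and Hddc3 differed by 3.03, -3.60 and 2.14 with tamoxifen. Of 46 S phase genes, 37 were called higher with tamoxifen too, whereas of 39 G2 and mitosis genes 5 were called higher and 3 lower. Ube2c and Cdc20 differed by -0.60 and -0.74 in the day 3 channel with tamoxifen, where both were called lower, and were at 1.41 and 1.17 without. The changes of -2.01 ± 0.22 and -1.91 ± 0.15 passed their own test (limma adjusted p = 0.0125 and 0.00626).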

How the data were processed

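Cytoplasmic RNA was hybridised to 8 dual-colour Agilent arrays, 2 per group of genotype and tamoxifen, and the 4 arrays without tamoxifen are compared. Images were read with Agilent Feature Extraction 10.7.3.1, per the submitters' processing notes. The deposited intensity values are mean and background signals per spot, with flags, per the file headers. The log10 ratio of red over green is also deposited, per the file headers, and the deposited value table equals it, turned for the dye swap, within 5e-10. It is 0 for 27.1% to 32.1% of probes.

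Signals were background-corrected (normexp, offset 50) and normalized by loess within arrays with limma 3.58.1 in R 4.3.3, and ratios were turned to day 3 over day 0. The day 3 channel was taken after Aquantile. Control spots and outliers were left out. Probes well above background on both arrays of a group numbered 22406 of 39429, in 17945 genes, of which 17942 had a value in both measures. A gene's brightest probe was used. Symbols were updated from RefSeq for 25854 probes. All 8 arrays entered 1 linear model with a mean per group and the experiment as a block (3 residual degrees of freedom). Tests were two-sided with Benjamini-Hochberg adjustment at 0.05. On simulated data the fit was checked for recovery of known changes. The labels say that a replicate number marks a biological experiment, and arrays were paired by it. Deviations of same-numbered arrays correlated at 0.31 to 0.729 in the ratio and 0.258 to 0.474 in the day 3 channel. The lowest values, 0.31 and 0.258, were those of flox and control without tamoxifen. The replicate number also sets dye direction and slide, so these correlations cannot tell a shared experiment from a shared dye or slide. The number of arrays limits the precision.

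The comparison, gene lists and marker lists were chosen with earlier results of these data known. Named genes are the THO subunits, the 12 called genes with the largest difference in each direction and measure, up to 4 genes of smallest p per list, up to 12 called in both measures per direction, and sex-linked genes. Other members of the lists, among them Ccnb2, Kif11, Cdc20, Pttg1, Mki67, Mcm2, Cdc6, Vldlr, Abcg1, Trib3, Nr1h3, Irf7 and H2-K1, were picked after their values were seen. Alternatives changed the normalization, background, filter, probe choice, arrays and block. Some items are not reported here.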

Additional observations from a re-analysis of the deposited data

Results flagged for a closer look

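The genotype difference without tamoxifen was set against the one with tamoxifen in the same limma fit, as the difference with minus the difference without, for the genes named above and for Dmpk, Cst7, Gprc5c and Tmeff1. It passed (adjusted p under 0.05 over all genes) for 11 of 60 genes in the ratio and 29 of 94 in the day 3 channel, with opposite signs of the 2 genotype differences in 8 and 15. The share of all genes that passed was not counted. Many of these genes were named for their difference without tamoxifen, which enters the change, so the counts do not describe an unselected set. Some opposite signs rest on a value near 0 with tamoxifen, such as 0.07 for Ednrb in the ratio. Groups of 2 arrays are too small for a check of single outlying arrays.

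Cd83 turned its sign, at 1.74 with and -2.30 without tamoxifen in the ratio (change 4.04, and 4.13 in the day 3 channel), as did Egr2, at 1.23 with and -1.16 without tamoxifen (changes 2.39 and 2.38). Thoc5 itself changed by -2.43 in the ratio and -2.31 in the day 3 channel. In the division genes the ratio and the day 3 channel changed by -2.02 and -2.01 for Ube2c, by -1.89 and -1.92 for Ccnb2, by -1.84 and -1.91 for Cdc20, by -2.05 and -2.10 for Cdkn3, and by -0.95 and -0.94 for Gtse1. Ednrb changed by 1.77 and 1.92, and Pparg by 1.01 and 1.09.

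In the ratio alone, Plac8 changed by 1.22. In the day 3 channel alone, the change was -2.58 for Chac1, -1.36 for Gpr84, -0.79 for Kif11, -0.92 for Nuf2, -1.02 for Birc5, -1.0 for Mki67, -1.11 for Psat1 and -1.15 for F13a1. It was also -1.95 for Dmpk, -1.39 for Orc1, -0.76 for Pole2, -1.33 for Marco, -1.55 for Treml4 and -1.22 for Tmeff1. In the other direction it was 2.15 for Thbs1, 0.94 for Abcg1, 2.55 for H2-M2, 1.04 for Tpp1 and 1.49 for Mcoln2.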

How the results depend on the processing

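In the ratio, where 517 genes were called, limma called 2 with no replicate block, 5 with Agilent's processed log ratios and 5 with the deposited value table. It called 0 with the 4 arrays alone, where 2412 genes had an unadjusted p under 0.05, and 0 in experiment 1 only and 0 in experiment 2 only, with 3739 and 2249 such genes. It called 158 with a log2 difference of at least 1 required, and 0 to 155 with an array left out, a fit that assumes the lone array of a group to vary like the other groups. In the day 3 channel, where 1796 were called, the count was 712 with no replicate block, 898 with no filter on dim probes, 290 with the 4 arrays alone, 340 with a log2 difference of at least 1, 330 in experiment 1 only and 126 in experiment 2 only, and 154 to 1207 with an array left out. With loess within arrays only, 87.7% of 2302 calls were higher in flox cells, against 55.2% of the calls reported. The experiment-only settings were chosen after seeing the data.

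Thoc5 in the day 3 channel did not pass at -0.56 with no replicate block (limma adjusted p = 0.0736), with no filter (0.0821) or with the 4 arrays alone (0.16), at -0.39 with loess only (0.0859), or at -0.56 where a log2 difference of at least 1 was required. With an array left out it was -0.70 to -0.41, and -0.35 in experiment 1 only and -0.76 in experiment 2 only. Xaf1 reversed to 1.49 in the day 3 channel with the mean of all its probes, which average opposite signs, and Eif2s3y to 0.22 in experiment 2 only, where it never passed. Among named genes that were called, 597 of the alternative values in the ratio and 361 in the day 3 channel kept the direction and lost the call, and 457 and 1146 kept both. The cause of these losses was not tested, beyond fewer arrays in some settings.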
